A study of Rattus norvegicus with 12 samples.

Results

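Of the 12 left atrial RNA-seq libraries of this rat study, 10 carried either an almost purely atrial or an almost purely ventricular set of myosin light chains, and these 10 libraries are described here. For each library the ventricular share was computed as the counts of Myl2 and Myl3, the ventricular regulatory and essential light chains, divided by the counts of Myl2, Myl3, Myl4 and Myl7, where Myl4 and Myl7 are the atrial light chains. A share under 5% defined 6 atrial-type libraries (SHR replicates 1 and 3, ARB replicates 1 and 2, ARNI replicates 1 and 3), and a share over 95% defined 4 ventricular-type libraries (WKY replicates 1 to 3 and ARNI replicate 2). The remaining 2 libraries, SHR replicate 2 and ARB replicate 3, lay in between and are called mixed. The types were thus chosen on the measured values themselves, so that the contrast between them is given as a description with no test.

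The study took the left atrium of male rats, 14 weeks old at purchase, after 4 weeks of treatment, with 3 libraries in each of 4 groups. WKY were normotensive Wistar-Kyoto rats on saline at 7.5 mL/kg/day, and SHR were spontaneously hypertensive rats on the same saline. ARB were spontaneously hypertensive rats on valsartan, an angiotensin receptor blocker, at 30 mg/kg/day, and ARNI were spontaneously hypertensive rats on sacubitril/valsartan, which adds a neprilysin inhibitor to the receptor blocker, at 60 mg/kg/day. The labels conflict on strain: for the 6 libraries on saline the wording of the title and the library name in brackets give opposite strains, and the strain entry reads Wistar-Kyoto for every library. The library names were followed here. On the genes described at the end, the libraries named SHR read like the 6 drug-treated ones and the libraries named WKY stood apart. Those genes were chosen for setting WKY apart or with earlier results known. Their values therefore do not decide between the title wording and the library names. Nothing in the labels says which rat each library came from, so the spread between replicates may be in part technical.

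Atrial and ventricular heart muscle cells are built from separate sets of contractile proteins. Atrial cells carry Myl4 and Myl7, hold the natriuretic peptides Nppa and Nppb in secretory granules, restrain the calcium pump with sarcolipin (Sln), and depend on the transcription factors Tbx5 and Nr2f2. Ventricular cells carry Myl2 and Myl3, restrain the pump mainly with phospholamban (Pln), use Irx4 and Hey2 to keep atrial genes silent, and are rich in mitochondria that burn fatty acids. In the adult rat Myh6 is the main myosin heavy chain of both chambers, and the slower Myh7 rises in the ventricle with load, age and thyroid state.

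The table held RSEM expected counts, summing to between 11252361 and 15823525 per library, so that 3 counts, the most that a count of 0 allows, correspond to 0.190 to 0.267 counts per 1000000 counts (CPM) in a library. Levels below are CPM after TMM scaling, a scaling of libraries by a trimmed mean of gene ratios. The ventricular share was 0.0626% in SHR replicate 1, 0.0572% in SHR replicate 3, 0.130% in ARB replicate 1, 0.153% in ARB replicate 2, 0.143% in ARNI replicate 1 and 1.08% in ARNI replicate 3. It was 99.8% in WKY replicate 1, 99.9% in WKY replicate 2, 99.97% in WKY replicate 3 and 99.8% in ARNI replicate 2. The mixed libraries stood at 43.2% (SHR replicate 2) and 44.0% (ARB replicate 3). The 95% Wilson intervals of these shares spanned at most 0.445 percentage points and cover counting error only. No library lay near a bound of the rule: the nearest inside the lower bound was ARNI replicate 3, whose interval ran from 1.04% to 1.13%, and the nearest outside was SHR replicate 2, from 43.0% to 43.4%.

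The remaining markers, which the rule did not use, fell the same way. Nppa, the precursor of atrial natriuretic peptide, ranged from 17243 to 51564 CPM over the 6 atrial-type libraries with a median of 39793 CPM, and read 33.9, 135, 295 and 45.0 CPM in WKY replicates 1 to 3 and ARNI replicate 2. Sln ranged from 984 to 1669 CPM against 0.45, 0.27, 0.47 and 1.74 CPM. Irx4, a homeobox repressor of atrial genes, read 42.4, 51.9, 41.5 and 40.7 CPM in the 4 ventricular-type libraries and had 1 count in all 6 atrial-type libraries together. The ventricular-type libraries are labelled left atrium like all others, yet Sln and Mybphl, a myosin-binding protein of atrial muscle, had 33 and 11 counts in all 4 of them together. The label was therefore not borne out by the defining atrial markers in WKY replicates 1 to 3 and ARNI replicate 2, and how the tissue came to differ was not tested. Because every WKY library is ventricular-type and every other library but ARNI replicate 2 is not, strain and type cannot be told apart in a comparison of WKY with SHR on saline.

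**Figure D1:**
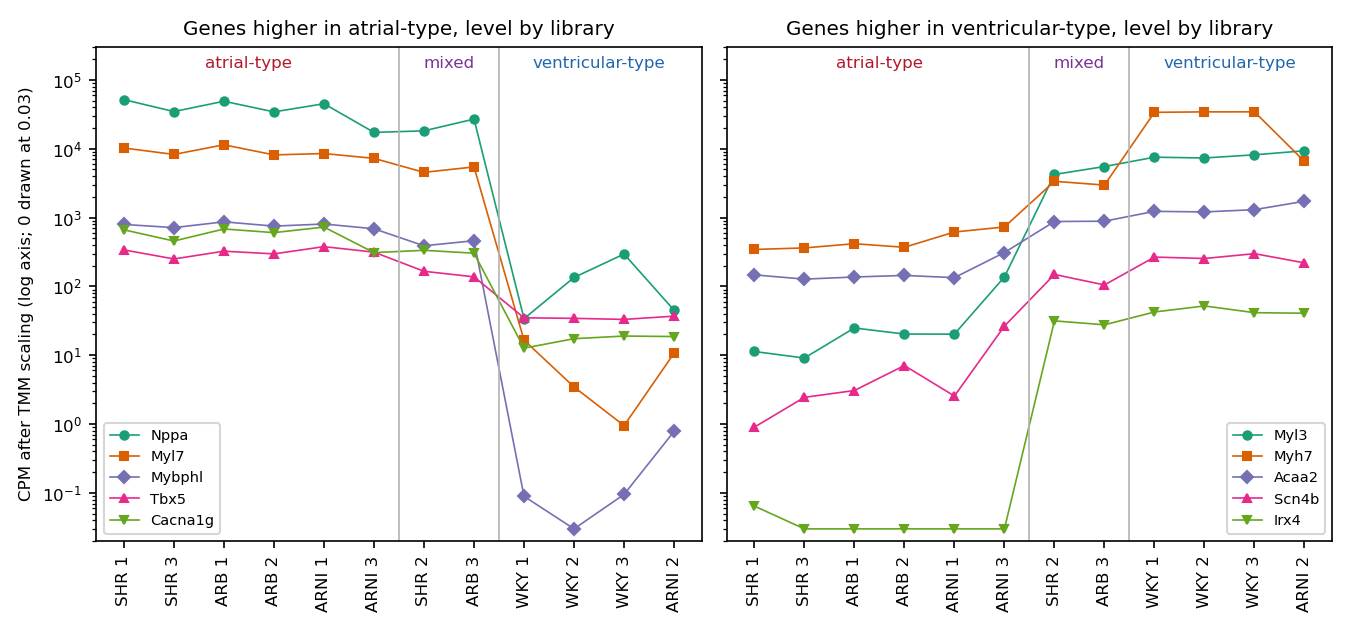
Level of 10 genes in each of the 12 libraries, in CPM after TMM scaling on a log axis, with libraries ordered as atrial-type, mixed and ventricular-type and a reading of 0 drawn at 0.03. Nppa, Myl7, Mybphl, Tbx5 and Cacna1g are low in WKY replicates 1 to 3 and ARNI replicate 2, Myl3, Myh7, Acaa2, Scn4b and Irx4 are high there, and SHR replicate 2 and ARB replicate 3 lie between for most of them.

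Of 14452 genes tested, 953 (6.59%) were higher in the atrial-type and 847 (5.86%) higher in the ventricular-type libraries, counting a gene where the 6 and the 4 libraries did not overlap and the mean log2 CPM differed by at least 1. The differences reached 5 on the log2 scale for 37 and 25 genes respectively, and the median over all genes tested was 0.03. With libraries scaled by their totals alone the number on the atrial side became 1252 and the median of all genes 0.19, so that the share of counted genes that were higher in atrial-type moved from 52.9% to 66.7%. Hence the split between directions depends on the scaling.

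Sequences upstream of some of the genes that separate the types are shown to put the regulators named above beside their possible targets. They are the 250 bases before the start of the gene in the RefSeq table for the build GRCr8, which is not the build of the counts. Capitals mark any match to 5 motifs, searched on both strands. The first was AGGTGT, a core site of T-box factors such as Tbx5. The second was AGGTCA, a core site of nuclear receptors. A longer form of it, preferred by estrogen-related receptors, was AAGGTCA, and every match to it is also one to the shorter form. Sites of GATA factors were searched as AGATAA. Sites of IRX factors were searched as ACANNTGT. Mybphl, at chr2:198693202-198693451 (plus strand), and Bmp10, at chr4:121429125-121429374 (plus strand), are shown as the muscle gene and the secreted factor among the genes furthest toward the atrial side. Myl4, at chr10:89975900-89976149 (plus strand), is shown as an atrial light chain with a T-box site. Acadvl, at chr10:55236706-55236955 (minus strand), and Echs1, at chr1:204333507-204333756 (minus strand), are shown as fatty acid enzymes of the ventricular side with a nuclear receptor site.
Mybphl: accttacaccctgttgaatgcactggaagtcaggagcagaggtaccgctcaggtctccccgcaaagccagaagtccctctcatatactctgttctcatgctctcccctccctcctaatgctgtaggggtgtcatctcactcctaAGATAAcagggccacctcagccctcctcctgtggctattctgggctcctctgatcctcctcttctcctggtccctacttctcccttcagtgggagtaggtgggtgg
Bmp10: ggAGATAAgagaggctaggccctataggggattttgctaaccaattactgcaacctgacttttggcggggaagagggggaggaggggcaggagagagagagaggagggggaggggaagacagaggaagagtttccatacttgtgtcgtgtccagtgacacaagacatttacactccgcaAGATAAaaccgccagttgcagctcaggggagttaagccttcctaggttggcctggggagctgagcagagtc
Myl4: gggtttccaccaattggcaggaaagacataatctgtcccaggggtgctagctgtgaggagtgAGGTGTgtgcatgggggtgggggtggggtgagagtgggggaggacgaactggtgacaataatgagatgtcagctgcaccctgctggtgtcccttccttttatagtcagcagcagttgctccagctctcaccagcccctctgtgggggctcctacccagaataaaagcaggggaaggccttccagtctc
Acadvl: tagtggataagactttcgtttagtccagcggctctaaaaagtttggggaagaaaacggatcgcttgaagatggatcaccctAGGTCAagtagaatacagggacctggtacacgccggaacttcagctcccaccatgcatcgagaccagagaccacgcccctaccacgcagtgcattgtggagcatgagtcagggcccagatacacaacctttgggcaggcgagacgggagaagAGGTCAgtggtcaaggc
Echs1: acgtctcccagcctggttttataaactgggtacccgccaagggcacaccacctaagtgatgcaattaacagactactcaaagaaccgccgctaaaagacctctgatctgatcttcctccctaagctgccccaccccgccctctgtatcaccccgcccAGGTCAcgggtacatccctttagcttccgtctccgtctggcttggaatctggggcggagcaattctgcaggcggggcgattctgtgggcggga

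Each motif was found in a minority of windows. By gene ID, 691 of the 953 atrial-side genes, 652 of the 847 ventricular-side genes and 11251 of the 14452 genes tested had a window. AGGTCA was present in 15.8% of the windows of the ventricular side, 10.9% of the atrial side, 10.6% of all genes tested and 13.7% of the 27457 windows in the table. AGGTGT was present in 9.82%, 10.4%, 9.31% and 11.4%, and AGATAA in 5.83%, 6.51% and 5.65% of the first 3 sets and in 2759 of the 27457 windows. ACANNTGT was present in 3.22%, 3.47%, 3.31% and 6.48%, and AAGGTCA in 4.45%, 2.60%, 2.46% and 3.77%. Of the 15 windows of the atrial cardiomyocyte genes listed below, 4 held the GATA motif, 1 the T-box motif (that of Myl4), 1 the IRX motif and none either nuclear receptor motif. Of the 17 windows of fatty acid oxidation genes, 3 held the shorter nuclear receptor motif, 1 the GATA motif and none the longer nuclear receptor, T-box or IRX motif. These are matches of letters, given with no test.

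The atrial cardiomyocyte list held 20 genes, of which 18 were left after Myl4 and Myl7, which the rule used. Of these 18, 15 were counted as higher in atrial-type libraries (6.59% of all genes tested were), 1 as higher in ventricular-type libraries (5.86% of all), and 2 were not counted, with a median difference of 2.47 on the log2 scale. Myl7 stood at 8954 ± 1545 CPM (SD, n = 6) against 7.91 ± 7.09 CPM (n = 4), and Myl4 at 8305 ± 1010 against 9.17 ± 9.48 CPM. Mybphl ranged from 686 to 866 CPM in atrial-type libraries and read 0.09, 0.00, 0.09 and 0.78 CPM in WKY replicates 1 to 3 and ARNI replicate 2, a ratio of the means of 3187. The atrial transcription factor Tbx5 stood at 317 ± 42.7 against 34.8 ± 1.58 CPM, 9.10-fold higher, and Nr2f2 ranged from 70.5 to 128 CPM against 17.6 to 21.2 CPM. Thus both factors kept a measurable level in ventricular-type libraries while the light chains nearly vanished. Pam, which amidates peptide hormones and is a main protein of atrial granules, ranged from 6894 to 12046 CPM against 1416 to 1809 CPM. The exception was Kcna5, the channel subunit of the ultrarapid potassium current, which read between 0.98 and 4.26 CPM in atrial-type and between 7.46 and 14.8 CPM in ventricular-type libraries. Gja5 and Hey1 overlapped between the types.

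The 12 largest differences toward the atrial side also included genes outside the marker lists. Atp1b4, a muscle protein of the sodium pump beta-subunit family that sits in the nuclear envelope, ranged from 86.4 to 184 CPM and had 1 count in the 4 ventricular-type libraries together. Rab15, a small GTPase of vesicle traffic, ranged from 184 to 305 CPM against 0.00 to 0.78 CPM. The kinase genes Sbk2 and Sbk3 and the relaxin receptor gene Rxfp1 were among the same 12. Hamp, the precursor of hepcidin, which limits iron export from cells, varied far more within the atrial-type libraries, from 72.3 CPM in SHR replicate 3 to 1616 CPM in ARB replicate 1, against 1.46 to 3.13 CPM in ventricular-type libraries.

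The atrial-type libraries also differed among themselves. Bmp10, a growth factor secreted by right atrial muscle, read 898 and 0.92 CPM in SHR replicates 1 and 3, 804 and 512 CPM in ARB replicates 1 and 2, and 1714 and 133 CPM in ARNI replicates 1 and 3. SHR replicate 3 and ARNI replicate 3 were thus the atrial-type libraries with the least Bmp10. The same 2 libraries were lowest in Kcnip2, a subunit of the transient outward potassium channel, at 79.8 and 237 CPM, where the other 4 ranged from 397 to 604 CPM. All 6 are labelled left atrium, and whether right atrial tissue was present was not tested.

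The ventricular cardiomyocyte list had 14 of its 15 genes tested, of which 12 were left after Myl2 and Myl3, which the rule used. Of these 12, 10 were counted as higher in ventricular-type libraries (5.86% of all genes tested were) and none as higher in atrial-type libraries, with a median of -2.59. Myl2 stood at 4043 ± 380 CPM (n = 4) against 5.68 ± 8.69 CPM (n = 6), and Myl3 at 8077 ± 898 against 37.1 ± 49.2 CPM, where ARNI replicate 3 was the highest atrial-type library for each, at 23.1 and 137 CPM. Hey2, a repressor of atrial genes, read between 18.0 and 21.8 CPM against 0.996 to 4.47 CPM. Pln stood at 6314 ± 183 against 2035 ± 245 CPM, 3.10-fold higher. Kcnip2 read between 903 and 1461 CPM against 79.8 to 604 CPM. Irx1 and Irx2 were not counted, as the types overlapped, and they read at most 1.61 CPM in any library.

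Of 14 sarcomere genes left after the 4 light chains of the rule, Mybphl was counted on the atrial side and Myh7 and Myh7b on the ventricular side, against 6.59% and 5.86% of all genes tested, and the rest of the list differed by less than 1 on the log2 scale. Myh6 stood at 33329 ± 3614 CPM in atrial-type and 31009 ± 8306 CPM in ventricular-type libraries, overlapping. Among the latter it read 25123 to 27924 CPM in WKY replicates 1 to 3, below Myh7 in each. In ARNI replicate 2 Myh6 read 43323 CPM, above Myh7. Myh7 read 33741, 34245 and 34293 CPM in WKY replicates 1 to 3 but 6522 CPM in ARNI replicate 2, against 343 to 729 CPM in atrial-type libraries. Myh7b, a related heavy chain, read 231, 191, 222 and 195 CPM against 8.10 to 28.3 CPM, with no such gap. Trim50, a ubiquitin ligase gene, read 80.4, 70.5 and 87.1 CPM in WKY and 27.5 CPM in ARNI replicate 2, against at most 0.52 CPM in atrial-type libraries. Rpl3l, a ribosomal protein of striated muscle that takes the place of Rpl3, read 343, 356, 332 and 433 CPM against at most 22.3 CPM, which was in ARNI replicate 3.

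Channel and calcium genes were counted on both sides, where 6.59% of all genes tested were on the atrial and 5.86% on the ventricular side. Of 20 potassium channel genes 5 were counted on each side: Kcnj3 and Kcnj5, which form the acetylcholine-activated channel, with Kcnk2, Kcna4 and Kcnh2 on the atrial side, and Kcnj2, Kcnj8, Kcnd2, Kcnip2 and Kcna5 on the ventricular side. Kcnj3 ranged from 167 to 280 CPM in atrial-type and from 44.1 to 55.2 CPM in ventricular-type libraries. Of 18 calcium cycling genes 4 were counted on the atrial side (Sln, Cacna1d, Cacna2d2, Itpr1). Only Pln was counted on the ventricular side, which is near the share of all genes tested. Ryr2, the calcium release channel, and Atp2a2, the calcium pump itself, were not counted. Cacna1g, a T-type calcium channel, stood at 573 ± 160 against 16.9 ± 2.92 CPM, 33.9-fold higher in atrial-type libraries. Scn4b, a sodium channel subunit, lay on the other side at 259 ± 32.8 against 7.08 ± 9.71 CPM.

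Cardiac transcription factors had 5 of 27 genes counted on the atrial side (Tbx5, Nr2f1, Nr2f2, Tbx18, Shox2) and 6 on the ventricular side (Irx3, Irx4, Irx5, Hey2, Prdm16, Meis2). Of all genes tested, 6.59% and 5.86% were counted on these sides. Gata4, Nkx2-5, Tbx20 and Mef2c, which act in both chambers, differed by less than 1. Shox2, a regulator of the sinus node, ranged from 1.35 CPM in SHR replicate 1 to 83.5 CPM in ARNI replicate 3, against 0.45 to 0.69 CPM in ventricular-type libraries. Of 8 genes of the sinus node and conduction list 5 were counted on the atrial side (6.59% of all genes tested were) and none on the other.

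Most genes of the fatty acid oxidation list were counted as higher in the ventricular-type libraries. Of its 21 genes 17 were counted on the ventricular side, where 5.86% of all genes tested were, and none on the atrial side, with a median of -1.67. Of 19 citrate cycle genes 10 were counted on the ventricular side and none on the atrial side, with a median of -1.10, and 9 were not counted. Acaa2, the mitochondrial thiolase, read 1229, 1206, 1300 and 1724 CPM in WKY replicates 1 to 3 and ARNI replicate 2 and ranged from 127 to 310 CPM in atrial-type libraries, 8.20-fold. Acadm, the medium-chain acyl-CoA dehydrogenase, stood at 1522 ± 184 against 248 ± 106 CPM, and Fabp3, the fatty acid carrier of heart muscle, at 3495 ± 577 against 562 ± 162 CPM. Cpt1a and Cpt1b, the outer gate of fatty acid entry, were below the 2-fold bound, with Cpt1b at 1031 to 1106 CPM against 481 to 729 CPM. Of 18 glycolysis genes 1 was counted on the atrial side (Pfkp) and 2 on the ventricular side (Ldhb and Pfkm), near the shares of all genes tested (6.59% and 5.86%), with a median of -0.42. Pfkp and Pfkm, the platelet-type and muscle-type subunits of phosphofructokinase, hence lay on opposite sides, with Pfkp at 82.9 to 164 against 32.5 to 48.3 CPM and Pfkm at 390 to 478 against 891 to 1017 CPM.

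**Figure D2:**
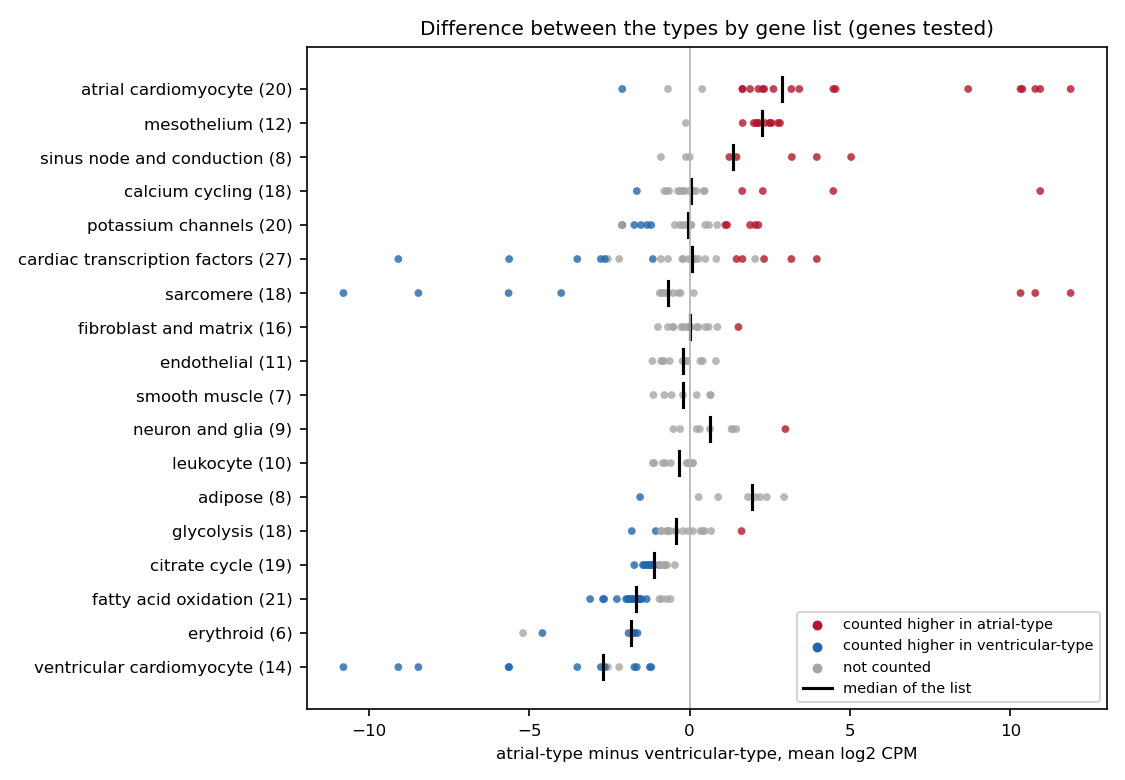
Difference in mean log2 CPM between the 6 atrial-type and the 4 ventricular-type libraries for each gene tested in 18 lists, with the number tested in parentheses, positive values higher in atrial-type, red and blue for counted genes and grey for the rest, and a black line at the median. Fatty acid oxidation and citrate cycle genes lie to the left with medians of -1.67 and -1.10, and mesothelial genes lie to the right with a median of 2.25.

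Markers of other cells moved with the types in some lists. Of 12 mesothelial genes, which mark the surface layer of the heart, 11 were counted as higher in atrial-type libraries, where 6.59% of all genes tested were, with a median of 2.25, and their summed level ranged from 305 to 611 CPM against 77.9 to 122 CPM. Msln ranged from 67.8 to 153 CPM against 12.8 to 29.9 CPM, whereas Wt1 overlapped. In bulk tissue fewer cells of a type and less RNA per cell cannot be told apart. Of 6 erythroid genes tested 5 were higher in ventricular-type libraries (5.86% of all genes tested were). Their summed level was 1065 to 2279 CPM against 241 to 993 CPM. Fibroblast and matrix genes had 1 of 16 counted (Fn1, atrial side), which is near the share of all genes tested, and endothelial (11), smooth muscle (7) and leukocyte (10) genes had none counted. Of 8 adipose genes 1 was counted (Plin4, ventricular side), and Adipoq, the adipocyte hormone, read 175 CPM in ARB replicate 2, 59.0 CPM in ARNI replicate 3, 5.03 CPM in WKY replicate 3 and at most 0.75 CPM in every other library. ARNI replicate 3 also held the most Tagln of smooth muscle, at 147 CPM against 4.24 to 36.7 CPM in the other atrial-type libraries, and the most Stmn2 of neurons, at 55.4 CPM against 0.56 to 3.94 CPM. The part of these cells in the differences between the types was not tested. Without ARNI replicate 3 and ARB replicate 2 the shares of all genes tested rose to 7.45% on the atrial and 7.43% on the ventricular side. The counts, light chains included, stayed at 17 of 20 for atrial cardiomyocyte, 11 of 12 for mesothelial and 10 of 19 for citrate cycle genes, and became 14 of 14 for ventricular cardiomyocyte and 18 of 21 for fatty acid oxidation genes.

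Whether ARNI replicate 2 followed the WKY libraries bears on whether type can be parted from strain, since it came from a spontaneously hypertensive rat. Between the 6 atrial-type libraries and WKY alone, 1039 genes (7.19%) were higher in atrial-type and 1018 (7.04%) higher in WKY. ARNI replicate 2, which this comparison did not use, lay on the WKY side of the midpoint for 900 of the 1039 (86.6%) and 833 of the 1018 (81.8%). It lay within the range of the atrial-type libraries for 79 (7.60%) and 159 (15.6%) genes. No share over all genes tested was taken for these counts. ARNI replicate 2 had itself been chosen as ventricular-type, and the light chains of the rule were not left out. These shares are therefore a description only.

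The same question was put without any WKY library. Within the ARNI group, on the same strain and drug, 1068 genes (7.39%) were higher and 1503 (10.4%) lower in replicate 2 than in replicates 1 and 3, by at least 1 and outside both. These 2571 genes were then read in WKY against SHR replicates 1 and 3, which share no library with the ARNI group. Of them 89.3% differed in the same direction there, against 75.1% of all genes tested, and 59.7% did so without overlap and by at least 1, against 16.0% of all genes tested. Of the same 2571, 67 genes (2.61%) were counted in the opposite direction, against 264 (1.83%) of all genes tested. The share with the same direction was 93.4% for genes higher and 86.5% for genes lower in ARNI replicate 2.

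Some of the named genes gave like values in the 2 comparisons. Acaa2 was 3.08 higher in ARNI replicate 2 than in ARNI replicates 1 and 3 on the log2 scale and 3.18 higher in WKY than in SHR replicates 1 and 3. Irx4 was higher by 9.12 and 8.81, and Pln by 1.71 and 1.68. Tbx5 differed by -3.22 and -3.09, Nr2f2 by -2.29 and -2.33, and Cacna1g by -4.66 and -5.09. By list, 18 of 21 fatty acid oxidation genes were higher in ARNI replicate 2, with a median of 1.72, and the median in WKY against SHR replicates 1 and 3 was 1.68. For mesothelial genes, 11 of 12 were lower, with medians of -2.86 and -2.26. The medians of some other lists differed in sign between the 2 comparisons. These were adipose (-4.15 and 1.43), neuron and glia (-1.53 and 0.12) and smooth muscle genes (-0.40 and 1.01). Myh7 was further apart, at 3.28 and 6.60, as was Cd36, at 1.63 and 4.59. Accordingly, the differences in fatty acid oxidation genes and in Tbx5, Nr2f2 and Irx4 were present between rats of the same strain and drug. The sides of the ARNI comparison rest on only 1 and 2 rats.

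**Figure D3:**
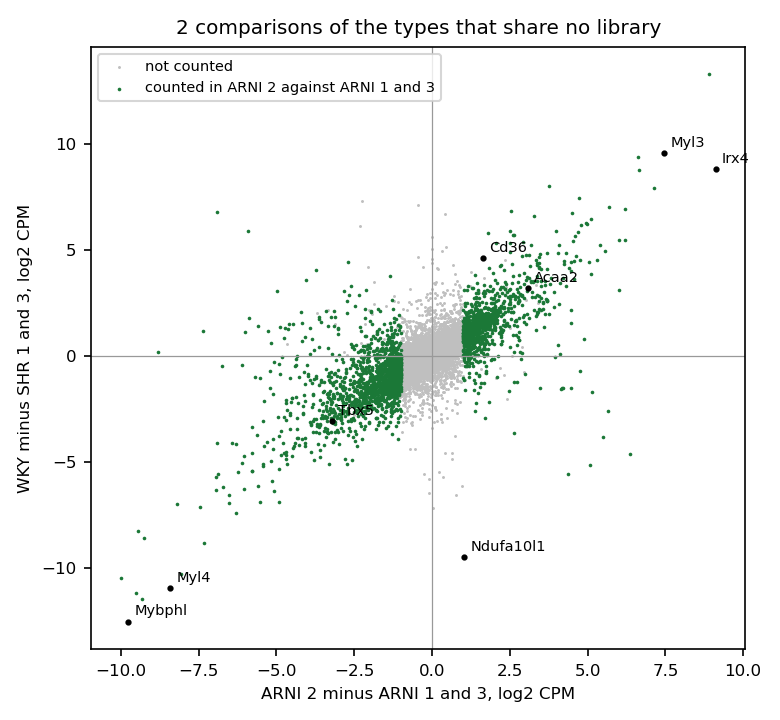
Difference in log2 CPM of ARNI replicate 2 from ARNI replicates 1 and 3 (horizontal) and of WKY from SHR replicates 1 and 3 (vertical) for the 14452 genes tested, with the 2571 genes counted in the first comparison in green and 8 named genes in black. Most green points lie in the lower left and upper right, and Ndufa10l1 lies far below at 1.03 and -9.51.

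The mixed libraries lay between the types over the whole set of counted genes. Their place was scored for each gene on linear CPM, with 0 at the mean of the atrial-type and 1 at the mean of the ventricular-type libraries and with the 4 light chains of the rule left out. SHR replicate 2 had a median place of 0.518 over 951 atrial-side genes (quartiles 0.357 and 0.676) and 0.504 over 845 ventricular-side genes (0.320 and 0.642). ARB replicate 3 had 0.586 (0.318 and 0.852) and 0.443 (0.241 and 0.655). The first was thus placed alike by both sets of genes, and the second further toward the ventricular type for genes lost than for genes gained. Of the atrial-type libraries ARNI replicate 3 stood furthest off, at 0.245 and 0.128, with the others between -0.0532 and 0.0246.

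**Figure D4:**
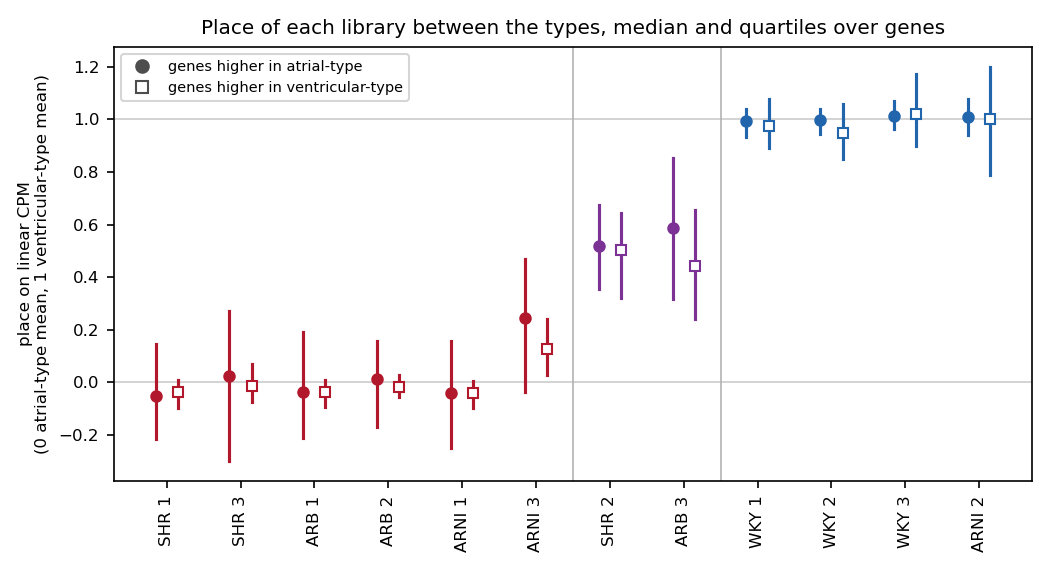
Place of each library between the atrial-type mean (0) and the ventricular-type mean (1) on linear CPM, as median (marker) and quartiles (line) over 951 genes higher in atrial-type (filled circles) and 845 genes higher in ventricular-type libraries (open squares). SHR replicate 2 and ARB replicate 3 lie between 0.443 and 0.586, and ARNI replicate 3 lies above the other atrial-type libraries.

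The place differed between groups of genes. Over 17 fatty acid oxidation genes SHR replicate 2 lay between 0.531 and 0.743 (median 0.637) and ARB replicate 3 between 0.308 and 0.806 (median 0.581). Over 11 mesothelial genes SHR replicate 2 had a median of 0.291 and ARB replicate 3 of 0.965, so that ARB replicate 3 had nearly the low mesothelial level of the ventricular-type libraries, with Msln at 20.6 CPM against 74.6 CPM in SHR replicate 2. Erythroid genes went past the ventricular type in ARB replicate 3, with Hba-a1 at 2175 CPM against 557 to 1243 CPM in ventricular-type libraries. Irx4 read 31.5 CPM in SHR replicate 2 and 27.6 CPM in ARB replicate 3, while Irx3 read 11.6 and 3.10 CPM against 20.5 to 31.8 CPM in ventricular-type libraries. Hamp was not lower in the mixed libraries, at 948 and 1123 CPM. Myh7, Trim50 and Ucp3, a mitochondrial carrier, had places of only 0.108, 0.104 and 0.169 in SHR replicate 2 and 0.0931, 0.114 and 0.0942 in ARB replicate 3. Against ARNI replicate 2 alone, Myh7 at 3359 and 2960 CPM in the mixed libraries stood beside 6522 CPM.

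Read in their own groups, the mixed libraries went mostly the same way as the ARNI comparison, less so for genes lower in ARNI replicate 2. Of the 2571 genes counted within the ARNI group, 82.3% had the same direction in SHR replicate 2 against SHR replicates 1 and 3, where 73.2% of all genes tested did. In ARB replicate 3 against ARB replicates 1 and 2 it was 88.1%, where 73.2% of all genes tested did. For genes higher in ARNI replicate 2 the share was 88.5% in SHR replicate 2 and 93.5% in ARB replicate 3. For genes lower in ARNI replicate 2 it was 77.8% and 84.3%. Counted in the opposite direction were 4.28% of the 2571 in SHR replicate 2, against 2.47% of all genes tested. In ARB replicate 3 these were 2.06% and 1.34%. Tbx5 differed by -0.81 and -1.17, Acaa2 by 2.68 and 2.65, and Irx4 by 8.30 and 8.56 on the log2 scale.

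Within the ventricular-type libraries WKY and ARNI replicate 2 differed in strain, drug and rat, which cannot be told apart. Both were ventricular-type by the rule, but their low levels of atrial genes were not all equal. Mybphl read 0.78 CPM in ARNI replicate 2 against a mean of 0.06 CPM in WKY. Myl4 read 23.1 against 4.53 CPM and Sln 1.74 against 0.40 CPM. Nppa went the other way, at 45.0 against 154 CPM. Whether ARNI replicate 2 held more atrial tissue was not tested. The rule on light chains did not use strain, so this difference was tested with edgeR's quasi-likelihood test on 10 libraries, with 7 residual degrees of freedom and the lone ARNI library assumed to vary like the others. Of 14452 genes 82 (0.567%) passed both a Benjamini-Hochberg adjusted p of 0.05 and a log2 fold change of 1, of which 30 (0.208%) were higher and 52 (0.36%) lower in WKY. For 69 of the 82, all 9 other libraries lay on 1 side of the 3 WKY libraries whatever their type, 24 higher and 45 lower in WKY. Over all genes tested, the WKY libraries stood apart from the other 9 in this way for 2410 (16.7%), and for 313 (2.17%) with a difference from ARNI replicate 2 of at least 1 on the log2 scale. Of the 82, 15 (18.3%) were among the 1800 genes counted between the types, against 12.5% of all genes tested, and 1 was Myl4, a gene of the rule, for which no p is given. The number rests on the WKY libraries, as it was 40, 36 and 47 without WKY replicates 1, 2 and 3, and 288 with the 4 ventricular-type libraries alone.

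Genes missing from WKY led the list. Ndufa10l1, a gene like the complex I subunit Ndufa10, had no count in any WKY library and read 132 CPM in ARNI replicate 2, at least 479-fold higher with the WKY libraries set at 3 counts each (adjusted p = 4.91e-06, edgeR's quasi-likelihood test). It read 48.7 to 71.7 CPM in the atrial-type and 94.4 to 102 CPM in the mixed libraries. Cbr1, a carbonyl reductase, read 0.09, 0.00 and 0.00 CPM in WKY and 13.3 CPM in ARNI replicate 2 (adjusted p = 0.000193, edgeR), with 6.42 to 14.8 CPM in the other 8 libraries. Setd4, a methyltransferase, read 0.00, 0.00 and 0.09 CPM against 8.16 CPM (adjusted p = 9.99e-05, edgeR), with 7.12 to 10.1 CPM in the other 8. Cbr3 and LOC102556347, at 0 in all 3 WKY libraries, read 2.69 and 5.47 CPM in ARNI replicate 2, and RGD1564247 read 2.60 CPM. The call of Cbr3 (adjusted p = 0.0438, edgeR) was lost in 9 of 15 alternatives, among them each one that left out a WKY library (adjusted p up to 0.112). In the gene order of the RefSeq table Setd4 and Cbr1 lie within 3 genes of each other, as do LOC102556347, LOC100360601 and Cbr3, and all 5 passed the test in the same direction.

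Other genes were higher in WKY. Serhl2, a hydrolase, read 117, 116 and 110 CPM in WKY and 28.3 CPM in ARNI replicate 2, 4.04-fold (log2 fold change 1.98 ± 0.21 SE, adjusted p = 0.00215, edgeR), while the other 8 libraries ranged from 12.1 to 19.9 CPM. Mettl24 read 3.74, 3.46 and 3.23 CPM in WKY, had no count in ARNI replicate 2 and read at most 0.06 CPM elsewhere (at least 13.3-fold with ARNI replicate 2 set at 3 counts, adjusted p = 0.0266, edgeR). The call of Mettl24 was lost without WKY replicate 1, 2 or 3 (adjusted p = 0.0809, 0.0905 and 0.0675, edgeR), without ARB replicate 2 (0.0880) and with the replicate block (0.0848). Hba-a3, an alpha globin, read 13.7, 7.00 and 10.7 CPM and had no count in ARNI replicate 2 (at least 40.3-fold, adjusted p = 0.00733, edgeR, and 0.0607 without ARNI replicate 1), unlike Hba-a1, which was present in every library. Close copies such as the globins may share reads, so this value is uncertain. Dnah14, a dynein heavy chain, LOC685590 and LOC103690914 had no count in ARNI replicate 2 and read 1.52 to 5.03 CPM in WKY. The calls of Dnah14 and LOC103690914 were lost in 6 and 11 of 15 alternatives, among them each one without a WKY library, and that of LOC685590 in none. Scnn1a, a subunit of the epithelial sodium channel, read 4.37, 3.46 and 6.73 CPM against 2 counts in ARNI replicate 2 (adjusted p = 0.0313, edgeR). The call of Scnn1a was lost without WKY replicate 1, 2 or 3 (adjusted p = 0.0809, 0.0597 and 0.0668, edgeR), without SHR replicate 1 (0.0541), ARB replicate 1 (0.0556) or ARNI replicate 1 (0.0559), and with the replicate block (0.117).

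Cd36, the fatty acid transporter whose defect is known in this hypertensive strain, read 1564, 1446 and 1691 CPM in WKY and 315 CPM in ARNI replicate 2, 4.97-fold (log2 fold change 2.28 ± 0.47 SE), yet did not pass (adjusted p = 0.0695, edgeR). The mixed libraries read 187 and 150 CPM and the atrial-type libraries 62.7 to 142 CPM. Without ARNI replicate 3, whose 142 CPM was the highest atrial-type value, it passed (adjusted p = 0.000317, edgeR). Myh7 did not pass either, at 5.23-fold higher in WKY than in ARNI replicate 2 (log2 fold change 2.35 ± 0.47 SE, adjusted p = 0.0598, edgeR), and passed without ARNI replicate 3 (adjusted p = 0.0144, edgeR). Of the glycolysis list Eno1 and Pfkl passed as lower in WKY, of which Pfkl was lost in 6 of 15 alternatives, among them those without WKY replicate 1 or 2 (adjusted p = 0.128 and 0.130, edgeR). Eno1 read 328, 335 and 321 CPM against 1152 CPM (log2 fold change -1.84 ± 0.19 SE, adjusted p = 0.00190, edgeR), with 471 to 749 CPM in the atrial-type and 908 to 1029 CPM in the mixed libraries.

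**Figure D5:**
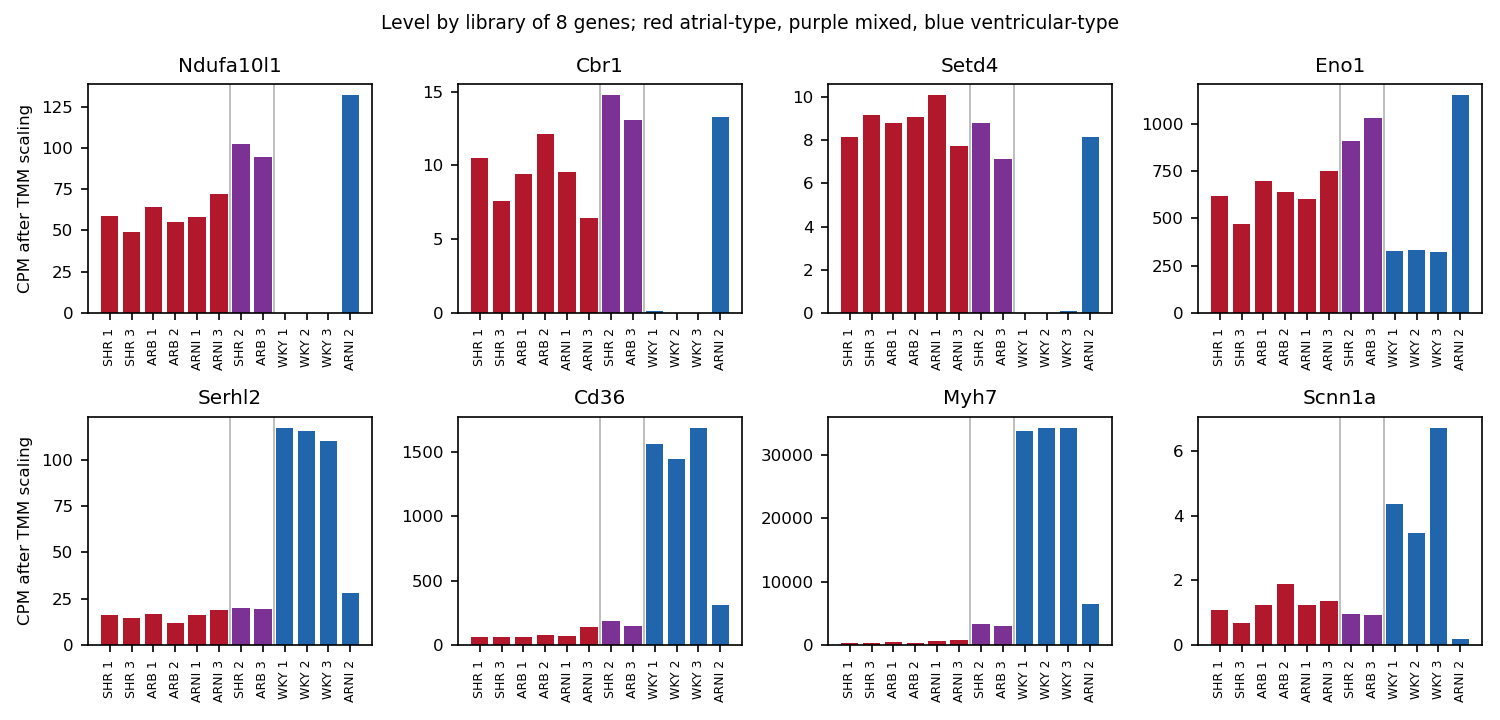
Level of 8 genes in each of the 12 libraries, in CPM after TMM scaling from 0, with red bars for atrial-type, purple for mixed and blue for ventricular-type libraries. Ndufa10l1, Cbr1 and Setd4 are at or near 0 in the 3 WKY libraries and present in the other 9, and Serhl2, Cd36 and Myh7 are highest in the 3 WKY libraries with ARNI replicate 2 far below them.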

How the data were processed

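Total RNA of the left atrium was sequenced from oligo(dT)-selected libraries on a BGISEQ-500. Reads were filtered by the authors (SOAPnuke) and aligned to Rnor_6.0 (HISAT2, Bowtie2), and the authors used RSEM to make the deposited values, which are expected counts per gene, neither normalized nor whole. Here 23.6% of the values were not whole (tolerance 0.001) and were rounded. Of 37246 genes listed, 21239 had counts, and 14452 passed filterByExpr of edgeR over the 12 libraries with the label groups. Levels are TMM-scaled CPM, and log2 CPM used a prior count of 1. The types were compared without a test, since the light chains chose them. WKY against ARNI replicate 2 was tested with edgeR's quasi-likelihood test (glmQLFit, glmQLFTest, edgeR 4.0.16, R 4.3.3) with Benjamini-Hochberg adjustment over all genes tested, called at 0.05 and a log2 fold change of 1. Tested on counts simulated for that comparison over 14452 genes, it recovered 13 of 50 genes changed by 1, 48 of 50 by 2, 48 of 50 by 3 and 49 of 50 by 4 on the log2 scale, and called 8 unchanged genes. Changes were put only into genes at 5 CPM or more over the ventricular-type libraries. These rates therefore do not cover genes at lower levels, such as Mettl24 and Cbr3.

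The rule, the gene lists and the tests were chosen with earlier results of these data known. Named genes were the type markers, members of the lists, the 12 largest differences in each direction between the types, the 6 largest fold changes in each direction of the strain test, and Ndufa10l1, Mettl24, Serhl2 and Cd36. Whether the replicate numbers pair libraries was not decided. Of 18 pairs with the same number, 5 had correlated deviations over 0.1 (range -0.445 to 0.516). The deviations were taken from the means of label groups, most of which hold more than 1 type. The correlations therefore mix pairing with type. No libraries were duplicates by a chi-square test of their counts. Alternatives were DESeq2 1.42.0, RLE scaling, library totals, other filters, other prior counts, a replicate block and leaving out each library. The authors' own comparison columns were not used. Intervals cover counting error only. One gene of the lists is not reported here.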

Additional observations from a re-analysis of the deposited data

Results flagged for a closer look

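In 22 cases 1 library lay far from the rest of its type, measured by its gap to the nearest library over the whole range, among 70 sets of 4 or 6 libraries over 38 genes. Chance gives about 1 in 20 for values not chosen in advance, but these genes were chosen for differences between the same libraries, so the number is not read against it. For Ndufa10l1, LOC102556347, Cbr1, Cbr3, RGD1564247, Setd4, Serhl2 and Mettl24 the gap restates how the gene was chosen. ARNI replicate 3 was the highest atrial-type library for the ventricular genes Myl2 at 23.1 CPM, Myl3 at 137 CPM, Scn4b at 26.5 CPM, Rpl3l at 22.3 CPM, Ucp3 at 7.52 CPM, Fads6 at 2.01 CPM, Cdh22 at 1.23 CPM, Trim50 at 0.519 CPM and Cd36 at 142 CPM. ARNI replicate 2 was the highest ventricular-type library for the atrial genes Sln at 1.74 CPM, Mybphl at 0.781 CPM and Bmp10 at 0.608 CPM, and for Fads6 at 39.0 CPM. It stood above the 3 WKY libraries for Ndufa10l1 at 132 CPM, Cbr1 at 13.3 CPM, Setd4 at 8.16 CPM, LOC102556347 at 5.47 CPM, Cbr3 at 2.69 CPM and RGD1564247 at 2.60 CPM, and below them for Serhl2 at 28.3 CPM and Mettl24 at 0.00 CPM. WKY replicate 2 was the highest ventricular-type library for Irx4 at 51.9 CPM. The causes were not tested.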

How the results depend on the processing

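Of the genes counted within the ARNI group, the share with the same direction in WKY against SHR replicates 1 and 3 varied. It was 81.5% with no filter on low counts, 96.0% with a filter of 5 CPM and 91.6% with a prior count of 5. With 1 library left out it lay between 78.0% (without ARNI replicate 1) and 89.8% (without ARNI replicate 3). The share over all genes tested was 75.1% in the main setting and was not taken for the alternatives. How far each alternative stands above its own share of all genes is therefore not known. The number of genes counted between the types ranged from 1831 to 2120 with 1 library left out and was 2502 without ARNI replicates 2 and 3, an alternative chosen after seeing the data. With 1 library left out, the median place of SHR replicate 2 ranged from 0.490 to 0.550 on atrial-side and from 0.407 to 0.508 on ventricular-side genes, and that of ARB replicate 3 from 0.559 to 0.618 and from 0.341 to 0.470, the lowest ventricular-side values being those without ARNI replicate 2. The 82 genes called between WKY and ARNI replicate 2 became 153 with DESeq2 (79 shared, with 4529 genes lacking an adjusted p). With the 4 ventricular-type libraries alone they became 288 (80 shared). With the replicate block they became 33 (30 shared), though whether the replicate numbers pair libraries was not decided. They were 36 without WKY replicate 2, 40 without WKY replicate 1, 47 without WKY replicate 3 and 106 without ARNI replicate 3, the lowest and highest being 36 and 106. RLE scaling gave 83, no filter 77 and all 12 libraries 89. At an unadjusted p under 0.05 there were 1920. Cd36 passed with DESeq2 (adjusted p = 3.96e-06), with the 4 ventricular-type libraries in edgeR (0.000582) and with all 12 in edgeR (0.0461), and Myh7 likewise (4.64e-07, 0.000172 and 0.0392). No single-gene value changed direction. The balance of genes called higher and lower in WKY did: more were lower in the main fit. More were higher with DESeq2 and with the 4 ventricular-type libraries alone. Of the values of 17 single genes in the strain test, 202 kept their side of the threshold. Another 45 fell below it and 8 rose past it. The 48 values of 24 genes between the types, which have no threshold, moved by less than the spread. The causes were not tested. Differences near 3 counts a library were not detectable at this depth.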
